A study of Mus musculus with 8 samples.

Results

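Of 9937 genes annotated as processed pseudogenes and given a value in these files, 198 reached 2 FPKM or more in at least 4 of the 8 libraries, and these 198 expressed processed pseudogenes are described here. FPKM, a fragment level scaled for the size of the library, is also a level per length of transcript. The biotype was read from the GENCODE M21 annotation of the mouse genome build GRCm38, matched by Ensembl identifier, and 55487 genes had a value in all. The genes were therefore chosen by their level, and a high level is no finding about them. The choice read all 8 libraries without their group, but Gm13464 reached the threshold through the tacrolimus libraries alone, and Gm8116 reached it in all 4 vehicle libraries and 1 tacrolimus library, which bears on their differences between groups.

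The libraries came from C57BL/6 mice, with no genetic change named in the labels, that carried subcutaneous tumors of B16F10, a pigmented melanoma line of the same strain. When tumors measured about 50 mm3, 7 to 9 days after injection, 4 mice were given tacrolimus intraperitoneally at 3 mg/kg and 4 were given vehicle, on a schedule of every 5 days. Tumors were harvested 6 days after the first dose and cells sorted as CD8+ tumor-infiltrating lymphocytes were sequenced, 1 library per mouse. Tacrolimus, also called FK506, forms a complex with FKBP12 that blocks the phosphatase calcineurin, and the series asks how its intermittent use bears on tumor-infiltrating T cells.

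A processed pseudogene is a copy of a spliced messenger RNA that was reverse transcribed, usually by the LINE-1 machinery, and inserted elsewhere in the genome. Such copies lack introns and usually their parent's promoter, and genes transcribed strongly in the germ line, such as those for ribosomal proteins and glycolytic enzymes, have left many of them. A young copy still differs little from its parent, so that short RNA sequencing reads from the parent fit the copy as well, and a level given to such a copy cannot be told apart from that of its parent.

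Copies of Gapdh and Ppia show how small these differences are, and are printed because their levels span the range of the set. Gapdh encodes the glycolytic enzyme glyceraldehyde-3-phosphate dehydrogenase. The same 90 bases of its coding sequence, bases 503 to 592 of 999, are shown for the gene and 4 copies, with capitals in the copies at bases that differ from Gapdh and capitals in Gapdh at every base where a copy shown differs. The sequences are from the GENCODE M21 transcripts of GRCm38, and the windows lie at chr5:105863111-105863200 on the minus strand for Gm10359, chr15:12575391-12575480 on the plus strand for Gm2606, chrY:38620285-38620374 on the plus strand for Gapdh-ps15 and chr1:186961015-186961104 on the plus strand for Gm3809.
Gapdh: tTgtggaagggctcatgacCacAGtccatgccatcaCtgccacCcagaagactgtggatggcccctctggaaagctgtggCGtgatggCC
Gm10359: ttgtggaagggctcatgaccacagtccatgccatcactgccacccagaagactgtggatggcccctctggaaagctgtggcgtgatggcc
Gm2606: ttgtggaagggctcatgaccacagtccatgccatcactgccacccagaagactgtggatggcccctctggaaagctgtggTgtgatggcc
Gapdh-ps15: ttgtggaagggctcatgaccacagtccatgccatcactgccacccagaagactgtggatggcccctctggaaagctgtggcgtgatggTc
Gm3809: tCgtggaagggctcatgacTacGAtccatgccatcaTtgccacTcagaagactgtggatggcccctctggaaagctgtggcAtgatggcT

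In this window Gm10359 was identical to Gapdh, Gm2606 and Gapdh-ps15 differed at 1 base each, and Gm3809 at 8. Over the whole copy, Gm10359 differed at 0 bases, Gm2606 at 1, Gapdh-ps15 at 5 and Gm3809 at 46. Their mean levels over the 8 libraries were 1044 FPKM for Gm10359, 99.3 for Gm2606, 4.22 for Gapdh-ps15 and 8.20 for Gm3809, so the copy with 46 differences stood above the copy with 5.

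Ppia encodes cyclophilin A, a peptidyl-prolyl isomerase that binds cyclosporin. Bases 181 to 270 of its 492 coding bases are shown with 3 copies, at chr9:96895838-96895927 on the plus strand for Gm10123, chr6:71641837-71641926 on the minus strand for Gm6063 and chr15:25840338-25840427 on the minus strand for Gm4824. Capitals have the same meaning.
Ppia: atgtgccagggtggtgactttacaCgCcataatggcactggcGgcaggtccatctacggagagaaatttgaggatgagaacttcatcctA
Gm10123: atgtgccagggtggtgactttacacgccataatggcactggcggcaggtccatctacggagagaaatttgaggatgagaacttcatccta
Gm6063: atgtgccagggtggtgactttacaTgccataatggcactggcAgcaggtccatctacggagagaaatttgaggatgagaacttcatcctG
Gm4824: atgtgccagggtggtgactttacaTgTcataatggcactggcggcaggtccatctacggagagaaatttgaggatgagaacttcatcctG

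Gm10123, identical to Ppia over all of its 490 bases, was at 2125 FPKM, the highest mean of the 198. Gm6063 and Gm4824 differed from Ppia at 3 bases each in this window and at 17 and 13 bases over the copy, and were at 22.0 and 8.62 FPKM.

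The expressed pseudogenes ranged from a mean of 1.63 to 2125 FPKM, with a median of 8.38. The mean was above 100 FPKM for 28 of them, above 10 for 88 and below 5 for 77, and 112 reached 2 FPKM in all 8 libraries. Together they held 1.77% ± 0.150 (SD, n = 4) of the summed FPKM of the tacrolimus libraries and 1.75% ± 0.225 (SD, n = 4) of the vehicle libraries. The single libraries lay between 1.45% and 1.97%, so the groups overlapped. The 10 with the highest means held 56.1% of the FPKM of the set, and leaving them out gave 0.776% ± 0.0729 and 0.771% ± 0.0715.

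Gm10123 was at 1865, 2186, 2350 and 2234 FPKM in the tacrolimus libraries and at 1947, 2748, 2136 and 1530 in the vehicle libraries. The highest and the lowest value both came from vehicle mice. Ppia itself was at 3661, 4158, 4575 and 4324 against 3637, 5150, 4220 and 3016 FPKM, and the same vehicle libraries were its highest and lowest. The difference of the tacrolimus from the vehicle group, on the log2(FPKM + 1) scale, was 0.07 (SE 0.19) for Gm10123 and 0.08 (SE 0.19) for Ppia, with adjusted p = 0.854 and 0.829 in limma over all genes tested.

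Gm10108, a 319-base copy that matched Cycs, the gene for cytochrome c, and the predicted coding gene Gm10053 equally well, with 2 differences, followed with 1012, 1222, 1388 and 1302 FPKM against 976, 1350, 1221 and 858. Gm10359 was at 937, 1206, 1120 and 1023 FPKM against 740.5, 1272, 1290 and 766. The groups of both genes overlapped. Atp6v0c-ps2, a copy of the gene for a proton-channel subunit of the vacuolar ATPase with 1 difference in 465 bases, was at 768, 945, 720 and 860.5 FPKM against 781, 1091, 895 and 1074. Its log2 difference of -0.22 (SE 0.16) had an adjusted p of 0.471 in limma. The other genes among the 10 highest were Gm12671 and Gm7336, both copies of Gapdh, Rps23-ps1, Gm14303, Rps16-ps2 and Rps13-ps2, the last 4 exact copies of ribosomal protein messages. None of the 10 differed between groups at an unadjusted p under 0.05.

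**Figure D1:**
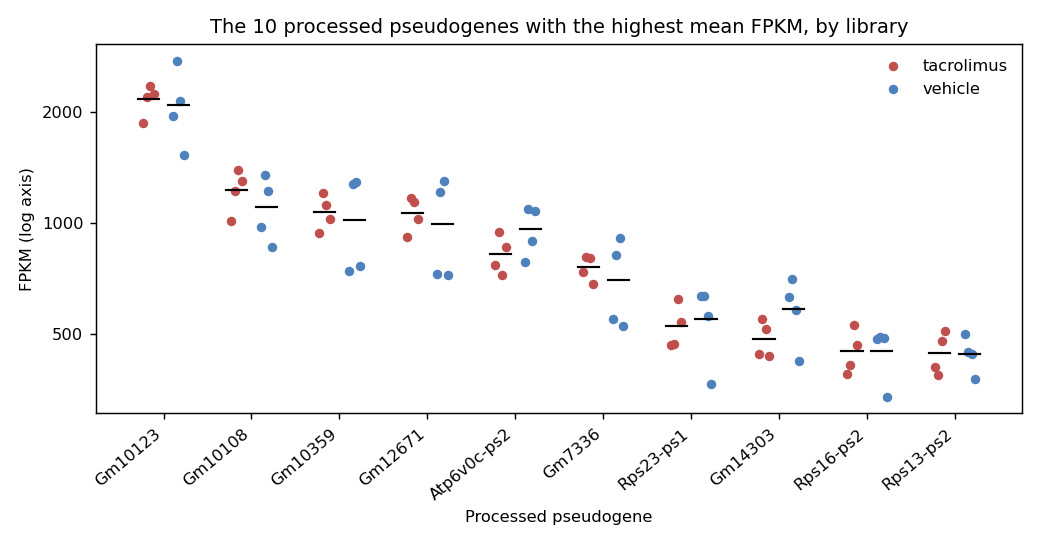
FPKM on a log axis of the 10 expressed processed pseudogenes with the highest mean, in 4 tacrolimus (red) and 4 vehicle (blue) libraries; black lines are group means. Every pair of groups overlaps, from 1530 to 2748 FPKM for Gm10123 down to 377 to 508 FPKM for Rps13-ps2.

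The symbols of 38 of the 198 name a parent by the suffix -ps, and 34 of these parents are protein-coding symbols in the annotation. In all 34 the named parent was a best match of the copy's sequence among protein-coding transcripts, by BLASTN. For the other genes, 152 of which carry Gm numbers, the parent was taken to be that best match, which is a match of sequence and not a statement of descent. The 198 matched 126 different genes, and 1 of them, Gm12895, matched none. All but 2 of the 198 had a single exon.

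Expressed copies resembled their matches more closely than other processed pseudogenes did. The median identity was 99.4% among them and 88.2% among the other 9739. Identity was 99% or more in 110 of 198 (55.6%) and 439 of 9739 (4.51%). The whole sequence was contained without a difference in a protein-coding transcript for 48 of 198 (24.2%) against 69 of 9739 (0.708%). An open reading frame of at least 95% of the coding length of the match was present in 73 (36.9%) against 568 (5.83%). A frame was counted only from a start codon to a stop codon inside the annotated copy. Gm10123, identical to Ppia over 490 bases, counted with 90, so intact frames that end before the stop codon are missed. The median level of the matches was 279 FPKM against 137. Lengths were alike, with medians of 488 and 528 bases, and 68.2% against 71.1% overlapped no other gene. Of the other 9739, 7160 (73.5%) were listed at 0 in every library.

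The share of processed pseudogenes that reached the threshold was 0.199% below 80% identity (3 of 1511) and 0.224% from 80% to 90%, among those aligned over at least 90% of their length. It was 1.28% from 90% to 95%, 2.76% from 95% to 98%, 4.74% from 98% to 99.5%, 23.2% from 99.5% to under 100% and 38.5% at 100% (50 of 130). Where the match was at 100 FPKM or more, 34 of 69 identical copies (49.3%) reached it. Where the match was under 10 FPKM, 0 of 23 identical copies did. This order did not hold in every class. For matches at 100 FPKM or more against under 10, the shares were 1.335% against 2.26% from 90% to 95% identity. They were 3.592% against 3.665% from 95% to 98%, and 7.04% against 2.24% from 98% to 99.5%. These shares describe the choice by level and were not tested.

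**Figure D2:**
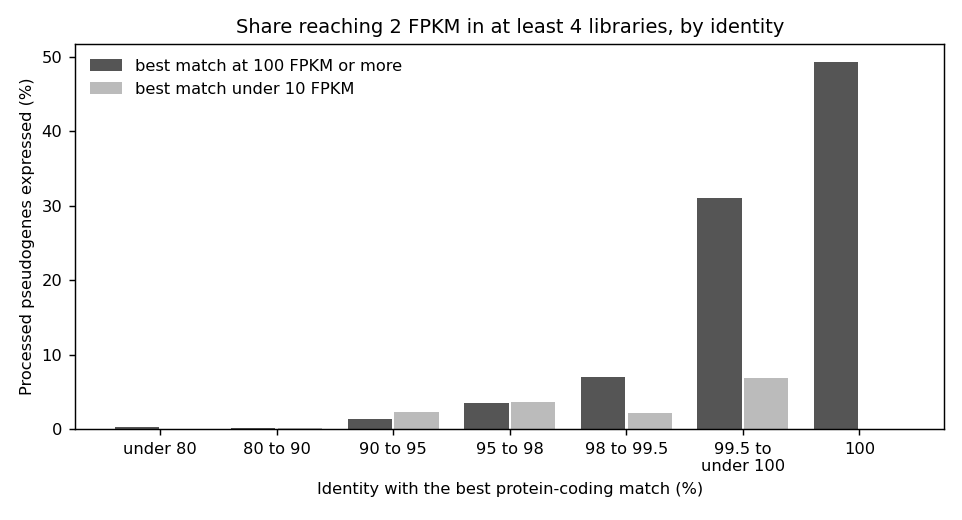
Share of annotated processed pseudogenes that reached 2 FPKM in at least 4 libraries (y axis, %) by identity with the best protein-coding match (x axis, %), for matches at 100 FPKM or more (dark) and under 10 FPKM (light). The dark bars reach 31.0% and 49.3% in the last classes, where the light bars stand at 6.90% and 0.

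At the threshold, the expressed genes just inside by their 4th highest library were AC169506.3 (2.01 FPKM), Rps12-ps9 (2.01) and Gm13464 (2.02), copies of Atp6v1f, an Rps12 sequence and Gapdh. Just outside stood Gm3671 (1.99), another Gapdh copy, Gm11942 (1.98) and Gm12808 (1.98).

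Gapdh was the commonest match, with 24 expressed copies of 235 that match it best. Gapdh was at 10530 FPKM on average and its expressed copies between 1.93 and 1044, while 110 of the other copies were listed at 0 in every library. The identical copies Gm10359 and Gm12671, on chromosomes 5 and 4, stood at 1044 and 1026 FPKM. The 7 copies with 1 difference stood between 26.9 and 99.3 FPKM, a level far below that of the identical pair. Gm7336, with 3 differences over 1232 bases, stood at 729 FPKM. Gm2574 and Gm5138, with 3 differences over 1002 bases, stood at 12.8 and 11.7. Of 112 copies under 90% identity, none reached the threshold and the highest mean was 1.21 FPKM. Gapdh-ps15 lies on the Y chromosome and had the lowest level relative to a named parent, a ratio of 0.000401, with 3.28 to 4.10 FPKM in the tacrolimus and 4.08 to 5.56 in the vehicle libraries.

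**Figure D3:**
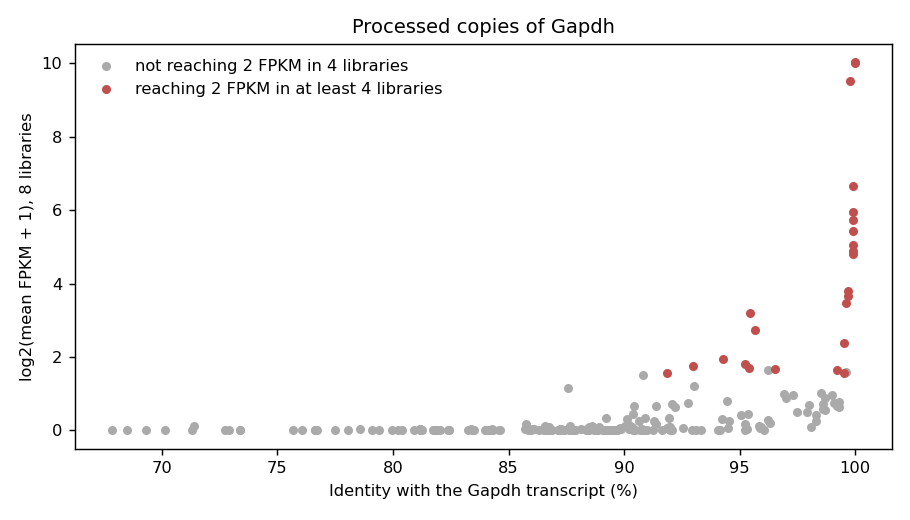
Mean level over 8 libraries (y axis, log2(FPKM + 1)) of processed copies that match Gapdh best over at least 90% of their length, by identity with the Gapdh transcript (x axis, %); red points reached 2 FPKM in at least 4 libraries. The 2 identical copies, at 1026 and 1044 FPKM, stand highest, and the 7 copies with 1 difference lie between 26.9 and 99.3 FPKM.

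Across the libraries the expressed Gapdh copies had a mean difference above 0 in 19 of 24, where 3166 of the 13032 genes tested did. Reads can fit several of these copies and Gapdh itself, so the copies are not independent of each other. Their median was 0.13 on the log2(FPKM + 1) scale, and Gapdh itself was at 0.13 (SE 0.23). Gm2574 and Gm13464 were higher at an unadjusted p under 0.05, where 1.6% of all genes were. Their adjusted p values were 0.239 and 0.243 in limma. Gm2574 was at 13.0, 15.9, 15.8 and 14.4 FPKM against 10.8, 13.2, 10.7 and 8.52. Only the highest vehicle library crossed the lowest tacrolimus library. Its twin in sequence, Gm5138, was at 7.35, 12.8, 13.7 and 11.7 against 11.5, 7.26, 20.5 and 8.77 FPKM, with a log2 difference of -0.00127 (SE 0.30). Gm13464 was at 2.21, 3.46, 3.21 and 2.02 FPKM against 1.53, 1.59, 1.51 and 1.59, with no overlap, but its choice rests on the tacrolimus libraries.

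Pgk1-rs7, an exact 1255-base copy of the message for phosphoglycerate kinase, a later glycolytic enzyme, was at 34.7, 34.7, 39.3 and 28.3 FPKM against 23.3, 22.7, 29.1 and 20.9. The groups overlapped by a single pair of libraries. Its difference was 0.50 (SE 0.16), with adjusted p = 0.199 in limma, and that of Pgk1 was 0.14 (SE 0.19).

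Cytosolic ribosomal protein genes gave the largest group by function, 54 expressed copies of 2512, from 1.91 to 536 FPKM with a median of 9.24. Rps16-ps2, identical to the Rps16 transcript over 441 bases, was at 390.5, 412.5, 527.5 and 466 FPKM against 484, 490.0, 487.5 and 338.5. Rps16 was at 92.2, 112, 148 and 145 against 95.2, 150.5, 123 and 81.9 FPKM. The copy stood above its parent in every library, by 3.80 times on the means and by between 3.23 and 5.08 times in single libraries. Mrpl23-ps1, a copy of a mitochondrial ribosomal protein gene, stood at 2.79 times Mrpl23, and Rps13-ps2 at 2.18 times Rps13. In all, 35 of the 198 had a higher mean than their best match, and for 22 the match was under 2 FPKM. How the submitters' tools divided reads between identical places is not given in the sources used here, so the level of an exact copy is uncertain.

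The 54 ribosomal copies had a median difference of 0.01 on the log2 scale, with 28 above and 26 below 0. Of the 13032 genes tested, 3166 lay above 0. The 84 tested ribosomal protein genes had a median of 0.03, and none had an unadjusted p under 0.05 in limma. Among the copies, Gm13611, an Rpl36 copy, was higher at an unadjusted p under 0.05 with a difference of 1.17 (SE 0.49), and Gm42522, an Rpl3 copy, was lower. By that measure 1.6% of all genes were higher and 15.8% lower. Gm42522 was at 9.30, 7.19, 2.98 and 10.2 FPKM against 13.0, 14.2, 18.8 and 16.8, with no overlap. Its 255 bases lie in an intron of Mapk10, a gene at 0.00250 FPKM, and its difference was -1.08 (SE 0.31) with adjusted p = 0.193 in limma.

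The other groups were smaller. Of the 29 copies of glycolysis and redox genes, which include the Gapdh copies, 24 had a mean difference above 0, where 3166 of the 13032 genes tested did, and 3 were higher at an unadjusted p under 0.05, where 1.6% of all genes were. Gm13464 is among these 3, and with median-of-ratios scaling there were 6, where 5.69% of all genes were higher. The Gapdh copies among the 29 are not independent of each other. Chromatin genes gave 10 expressed copies, led by Gm15387, a copy of the DNA-binding protein gene Hmgb1, at 242 FPKM and Gm4739, a copy of Hmgb2, at 183. Ubiquitin and proteasome genes gave 7, led by Ube2n-ps1 at 176 FPKM, an exact copy of the message for a ubiquitin-conjugating enzyme that lies in an intron of Clock. Oxidative phosphorylation genes gave 6, led by Gm12338, an exact copy of Cox7c, at 316 FPKM. Gm10108, at 1166 FPKM, was grouped by its match Gm10053 and is not among them. It matched Cycs, a gene of this group, equally well. The highest single copies of the translation, RNA binding and ferritin genes were Tpt1-ps3 at 280 FPKM, the Snrpg copy Gm8186 at 338 and the ferritin light chain copy Gm15590 at 74.3.

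Some expressed copies are identical to each other in sequence, and reads within them fit both places equally well. Gm10359 and Gm12671 took nearly equal parts, Gm10359 holding between 49.6% and 51.4% of their sum in every library. Gm11518 and Rpl27-ps3, identical over 411 bases and to Rpl27, did not. Gm11518 was at 309, 513, 560.0 and 292 FPKM in the tacrolimus and 348, 497, 450.4 and 429 in the vehicle libraries. Rpl27-ps3 was at 152, 53.0, 35.6 and 309 against 204, 75.7, 119 and 15.6 FPKM, high where Gm11518 was low within the tacrolimus group. Gm11518 held between 48.5% and 96.5% of the sum. The sum was at 461, 566, 596 and 601 FPKM against 552, 573, 570 and 445, with an SD within groups of 0.18 on the log2(FPKM + 1) scale, against 0.38 for Gm11518 and 1.48 for Rpl27-ps3.

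Gm13370 and Gm10240, identical copies of 483 bases that best match Rpl21, gave differences of opposite sign. Gm13370 was at 6.74, 0, 0 and 6.47 FPKM against 20.9, 0, 11.1 and 10.7, a difference of -1.44 (SE 1.02). Gm10240 was at 5.52, 7.11, 12.8 and 6.58 against 0, 7.38, 10.9 and 2.78 FPKM, a difference of 0.97 (SE 0.66). Gm13370 held between 0% and 100% of the sum in single libraries, and the sum differed by -0.39. Neither passed the adjusted threshold, with adjusted p = 0.463 and 0.445 in limma, and both groups overlapped.

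The spread between mice of 1 group differed with length, though not in a single order. The median SD within groups on the log2(FPKM + 1) scale was 0.78 for the 3 expressed copies of 60 to 159 bases and 0.63 for the 5 of 160 to 199, whose median level was 284 FPKM. It was 1.15 for the 7 of 200 to 249 bases, 0.65 for the 37 of 300 to 399 and 0.35 for the 41 of 1000 to 1499. Among single-transcript genes, 10% of the nonzero values lay below 2.17 FPKM at 200 to 249 bases and below 0.0600 FPKM at 1000 to 1499. A value of 2 FPKM is thus near the smallest nonzero values in the first class and far above them in the second. Rpl38-ps2, a 213-base exact copy, was at 17.9, 120.1, 19.0 and 80.04 FPKM against 0, 57.0, 3.79 and 28.4. The groups overlapped, and its difference of 2.20 (SE 1.16), the largest above 0 in the set, had an adjusted p of 0.340 in limma. Gm6565, a Ube2v2 copy of 438 bases, was at 13.6, 0, 0 and 29.1 FPKM against 0, 30.7, 0 and 15.0, listed at 0 in 2 libraries of each group. Ube2v2 has another identical-matching copy, Gm6361, at a mean of 10.6 FPKM.

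No gene passed an adjusted p under 0.05 between tacrolimus and vehicle in limma, among the 198 expressed processed pseudogenes or among all 13032 genes tested (percent called 0.0). At an unadjusted p under 0.05, 10 of the 198 (5.05%) were higher in the tacrolimus libraries, where 1.6% of all genes were, and 7 (3.54%) were lower, where 15.8% of all genes were. The groups did not overlap for 4 higher (all genes 0.767%) and 6 lower (all genes 10.2%). The 10 and the 4 higher include Gm13464, which was chosen through the tacrolimus libraries alone. The 7 lower include Gm8116, whose choice rests on the vehicle libraries. The median difference was 0.05 over the 198, -0.19 over all genes tested and -0.06 over the 119 tested best matches, each taken once. The 112 pseudogenes tested that did not reach 2 FPKM in 4 libraries had a median of 0.07.

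The balance of the directions depends on scaling. With median-of-ratios scaling, all genes shifted by 0.20 to a median of 0.01, and 741 were higher (5.69%) and 735 lower (5.64%), in place of 208 and 2056. The expressed pseudogenes then had a median of 0.24, with 23 higher and 5 lower. With upper-quartile scaling 24 were higher (all genes 5.55%) and 6 lower (all genes 5.97%). Their median stood above that of all genes by 0.24 under both scalings, and still no pseudogene passed the adjusted threshold in limma, with a smallest adjusted p of 0.154. The best matches had a median of 0.17 with that scaling, in place of -0.06, and the ribosomal copies a median of 0.23, with 46 of 54 above 0. The 84 ribosomal protein genes had a median of 0.26, with all 84 above 0 and 1 higher by unadjusted p, or 4 with upper-quartile scaling. The Gapdh copies had a median of 0.33, with 22 of 24 above 0. Eif3e, at -0.12 with the values as deposited, stood at 0.11.

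Markers of several cell types are given beside these counts. Genes that mark melanoma cells summed to between 22510 and 27600 FPKM in the tacrolimus and between 18910 and 34040 in the vehicle libraries, although the cells were sorted as CD8+ lymphocytes. The 10 CD8 T cell markers summed to between 46.8 and 347 FPKM against 330 and 1388, and 10 of 10 had a lower mean in the tacrolimus group. The 10 macrophage and monocyte markers summed to between 224 and 524.5 against 404 and 1715, again 10 of 10 lower. The 5 neutrophil markers summed to between 13.8 and 46.1 against 32.1 and 351, with 5 of 5 lower, and the 4 red cell markers to between 1073 and 7064 against 106 and 5246, with 0 of 4 lower. Of the 9 melanoma markers, 6 had a lower mean in the tacrolimus group. So did 4 of 4 B cell markers, 1 of 3 natural killer cell markers and 3 of 5 fibroblast and endothelium markers. No marker of these lists was at 0 in every library. Vehicle replicate 1 had the highest T cell and macrophage marker sums, and without it 17 expressed pseudogenes were higher (all genes 2.23%) and 11 lower (all genes 19.3%) by the unadjusted limma p. In bulk RNA, fewer cells of a type and less RNA per cell cannot be told apart, and the part of these shifts in the results for pseudogenes was not tested.

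The smallest p of the set belonged to Gm19097, at chr14:61283780-61284788 on the minus strand, a 1009-base copy that overlaps no other gene. Its best match was Eif3e, which encodes a subunit of the translation initiation factor eIF3, at 74.3% identity, so it is 1 of the 12 expressed copies under 90%. The 90 bases of the Eif3e coding sequence where they differ most, bases 21 to 110, are shown with the copy at chr14:61284694-61284783. Capitals mark the 24 bases that differ.
Eif3e: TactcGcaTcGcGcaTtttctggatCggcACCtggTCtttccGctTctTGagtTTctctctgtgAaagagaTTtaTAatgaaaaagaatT
Gm19097: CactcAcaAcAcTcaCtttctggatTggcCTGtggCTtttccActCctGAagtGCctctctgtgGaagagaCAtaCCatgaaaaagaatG

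Gm19097 was at 2.12, 2.61, 2.57 and 2.73 FPKM in the tacrolimus and 6.67, 7.49, 6.18 and 9.00 in the vehicle libraries. Every tacrolimus library lay below every vehicle library, by a wide margin. The difference was -1.24 (SE 0.18) on the log2(FPKM + 1) scale, with an adjusted p of 0.139 in limma, and lay between -1.31 and -1.15 with any 1 library left out. Eif3e was at 146, 182, 186.5 and 203 FPKM against 182, 229, 184 and 183, a difference of -0.12 (SE 0.14), with groups that overlapped.

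Gm42857, a 339-base gene on chromosome 5, had the smallest p among those higher. It was at 53.8, 29.6, 31.9 and 36.3 FPKM in the tacrolimus and 15.6, 11, 11.9 and 7.01 in the vehicle libraries. The lowest tacrolimus library stood well above the highest vehicle library. The difference was 1.66 (SE 0.25), adjusted p = 0.139 in limma, and between 1.47 and 1.82 with any 1 library left out. Its match, Olfr1385, an olfactory receptor gene at 0.574 FPKM, is alike only outside the coding region.

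Gm42857 is 1 of 9 expressed pseudogenes, on 6 chromosomes, that share sequence with each other, linked by at least 80% identity over at least 100 bases. This family was put together after the values had been seen, and was taken because it holds Gm42857. For 8 of the 9 the best protein-coding match lay outside the coding region, and no match exceeded 1.13 FPKM, so a highly expressed parent was not found among protein-coding transcripts. The family was not compared with repeat elements here. The members are 339 to 3841 bases long and stood between 2.37 and 24.6 FPKM. The other members are Gm48216, Gm47654, Gm48415, Gm48269, Gm48119, Gm48493, Gm47933 and Gm47103.

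All 9 had a higher mean in the tacrolimus group, under each of the 17 alternatives run. Among these, the other filters, robust variances and the replicate block leave a difference as it is, so they add nothing here. Their median difference was 0.68, against -0.19 over all genes tested, and 0.86 with median-of-ratios scaling, where all genes stood at 0.01. Of the 9, 5 were higher (all genes 1.6%) and 0 lower (all genes 15.8%) at an unadjusted limma p under 0.05, and none passed the adjusted threshold in limma. The summed level of the family was 110.0, 76.0, 79.0 and 114 FPKM in the tacrolimus and 57.5, 30.5, 40.9 and 47.9 in the vehicle libraries, with no overlap. Since reads can fit several of these sequences, the members are not independent of each other.

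Within the family, Gm47654 was at 12.5, 6.72, 9.11 and 17.8 FPKM against 6.71, 3.83, 5.01 and 5.97. Its lowest tacrolimus and highest vehicle library differed by only 0.01 FPKM. Gm48415 was at 7.56, 6.12, 5.86 and 10.6 against 4.74, 2.43, 5.29 and 4.98 FPKM, also without overlap. Gm48269 was at 9.26, 6.64, 6.05 and 7.01 against 6.23, 1.45, 3.88 and 3.36, with overlap through vehicle replicate 1. The differences of these 3 were 0.92 (SE 0.28), 0.68 (SE 0.25) and 0.89 (SE 0.31), with adjusted p values of 0.195, 0.233 and 0.216 in limma. The melanoma marker sums, which overlapped between the groups, are given above, and their part in these differences was not tested.

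**Figure D4:**
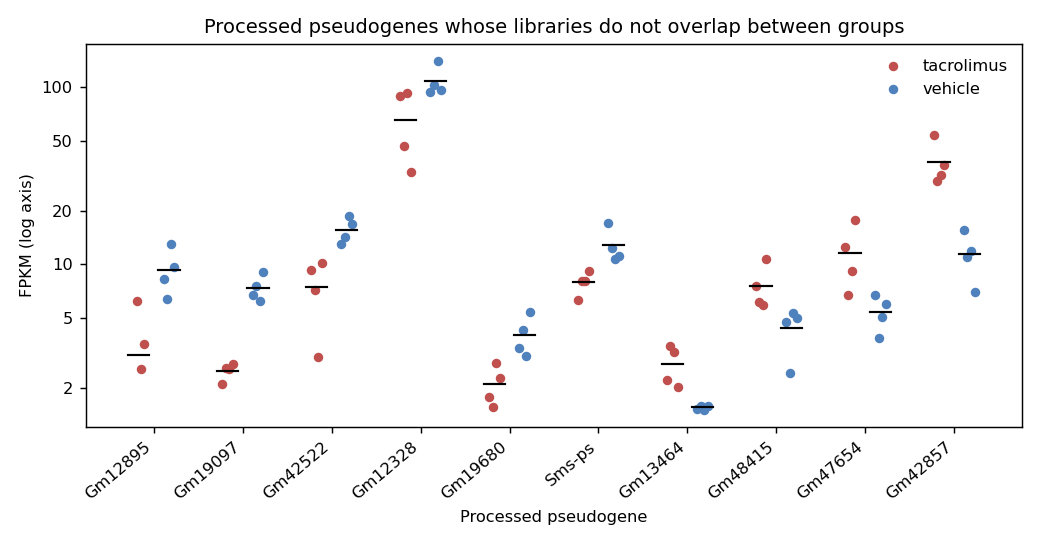
FPKM on a log axis of the 10 expressed processed pseudogenes whose tacrolimus (red) and vehicle (blue) libraries do not overlap, ordered by difference; black lines are means of 4 libraries. The 6 genes at the left are lower and 4 at the right are higher in the tacrolimus group; a tacrolimus library of Gm12895 at 0 FPKM is not drawn.

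Among the other genes lower in the tacrolimus group without overlap, Sms-ps is an exact 1101-base copy on the X chromosome of Sms, the gene for spermine synthase. It was at 6.28, 8.06, 8.08 and 9.14 FPKM against 17.1, 12.3, 10.7 and 11.1. Sms itself, at 10.99 FPKM on average, differed by -0.38 (SE 0.17) and Sms-ps by -0.62 (SE 0.19), adjusted p = 0.195 in limma. Gm12328, a 197-base copy of the polyubiquitin gene Ubb, was at 88.7, 46.5, 93.1 and 33.3 FPKM against 93.8, 103.2, 139.9 and 95.9, where the nearest libraries almost met. Gm19680, a copy of the polyamine oxidase gene Paox with 1 difference, was at 1.77, 1.57, 2.76 and 2.28 against 3.36, 4.26, 3.03 and 5.36 FPKM.

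Gm12895, with 226 bases and no protein-coding match, was at 0, 6.17, 2.55 and 3.56 FPKM against 8.24, 6.38, 13.0 and 9.69. Its difference was -1.61 (SE 0.52), adjusted p = 0.201 in limma. Gm8116, a copy of the methyltransferase gene Carnmt1 with 2 differences in 1201 bases, was at 1.08, 1.06, 0.690 and 3.88 FPKM against 4.08, 6.99, 3.27 and 3.79. A single tacrolimus library lay within the vehicle range, and the difference was -1.14 (SE 0.35), but its choice rests on the vehicle libraries. Gm43493, a 202-base gene within an exon of Zkscan1 on the same strand, was at 3.82, 8.92, 7.84 and 8.95 against 2.52, 0, 0 and 8.01 FPKM. Reads of Zkscan1, at 198 FPKM, cannot be told apart from those of Gm43493, and Zkscan1 differed by 0.21 (SE 0.27).

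Each pseudogene could be set beside its match, which was chosen by sequence. For the 11 with several equally good matches, the match with the highest mean FPKM was taken. Of 184 with a tested match, 128 had a difference on the same side of 0 as the match, and 178 lay within 2 combined SE of it. Of the 48 exact copies, 47 lay within 2 combined SE. These counts hold reads that the copy and match may share. A wide SE, such as 1.43 for Gm6565, also brings a copy within 2 combined SE without close agreement.

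**Figure D5:**
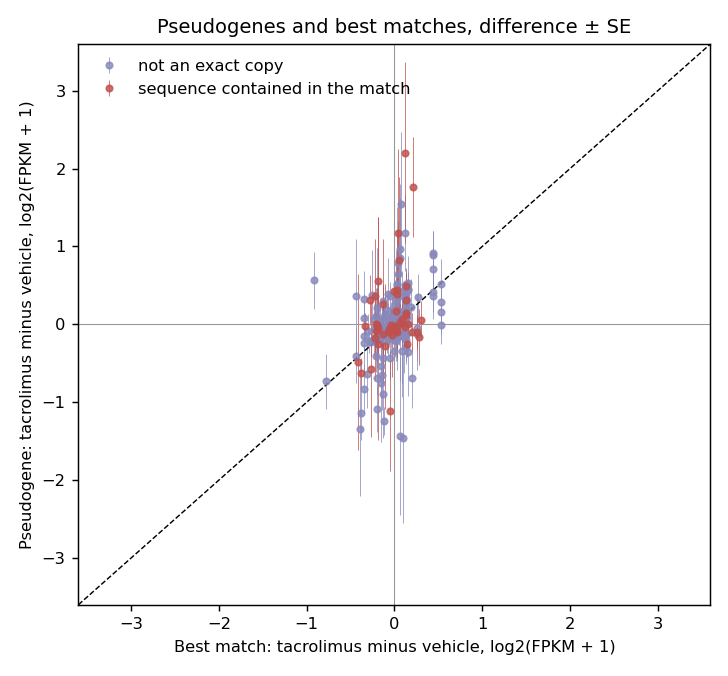
Difference between tacrolimus and vehicle on the log2(FPKM + 1) scale of 184 expressed processed pseudogenes (y axis, bars are ± SE) and of their best protein-coding match (x axis); red points are the 48 exact copies and the dashed line is equality. The pseudogenes spread from -1.46 to 2.20, and 178 lie within 2 combined SE of their match.

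Where a copy has diverged from its match, fewer reads can fit both. The 12 expressed copies under 90% identity were led by Gm18599, an intronless relative of the GTPase-activating protein gene Arhgap21 at 84.6% identity. It was at 58.4, 64.0, 68.9 and 76.9 FPKM against 72.9, 79.8, 57.2 and 58.9, above the mean of 38.1 for Arhgap21. The groups overlapped throughout, with a difference of 0.00 (SE 0.15). Gm11489, at 71.7% identity with the nucleic acid-binding protein gene Cnbp, was at 11.2, 8.62, 17.7 and 22.9 FPKM against 24.1, 8.31, 29.5 and 31.1. It lies on the same strand in an intron of Tex14, at 9.93 FPKM. Gm5340, an Rplp0 relative at 82.0%, was at 4.12 to 5.33 FPKM in the tacrolimus and 3.16 to 7.18 in the vehicle libraries. Of the 12, only Gm19097 had an unadjusted p under 0.05.

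Positions were set beside those of the other processed pseudogenes as a description, with no test. Same-strand introns held 23 of the 198 (11.6%) against 10.0% of the others, and opposite-strand introns 26 (13.1%) against 15.3%. Exons of another gene were overlapped on the same strand by 6 (3.03%) against 1.09%, and on the opposite strand by 8 (4.04%) against 2.46%. For 16 of the 23 in same-strand introns the host gene was at 2 FPKM or more. Hmgb1-ps5, at 8.56 FPKM, lies in the cathepsin gene Ctss, at 92.1 FPKM. Gm45105, at 2.12 FPKM, lies within the annotated span of Fgfr2, a growth factor receptor gene, at 2019 FPKM. That span runs from chr7:130162451 to chr7:133123350, and whether its level belongs to the receptor message alone was not tested. Reads from an unspliced host transcript would fall on such copies too, and their part was not tested.

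Retroelements, among them the LINE-1 elements whose machinery makes processed copies, are restricted or silenced by many host genes and helped by some, and 28 of the 31 listed genes of these kinds with a value were tested. None was higher (all genes 1.6%) and 8 were lower (all genes 15.8%) at an unadjusted p under 0.05, with a median difference of -0.34 against -0.19 over all genes, and none passed the adjusted threshold in limma. Samhd1, a dNTP hydrolase that limits reverse transcription, was at 11.9 ± 2.39 FPKM against 27.7 ± 15.3 (SD, n = 4 each), a difference of -1.04 (SE 0.31). Apobec3, a cytidine deaminase that acts on retroviral DNA, was at 7.64 ± 2.54 against 21.2 ± 12.1 FPKM, and Adar, an RNA editing enzyme, at 4.81 ± 0.415 against 7.25 ± 1.11. Trim28, a corepressor that silences retroelements, was at 189 ± 34.7 against 173.5 ± 35.8 FPKM, within the spread. All T cell and macrophage markers had lower means in the tacrolimus group, and their part in these values was not tested. With median-of-ratios scaling the median of the 28 was -0.12, against 0.01 over all genes. Then 3 were lower by unadjusted p (all genes 5.64%).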

How the data were processed

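Expressed processed pseudogenes were described in 8 RNA sequencing libraries, 4 tacrolimus and 4 vehicle, grouped by the sample titles. The deposited files hold 1 value per gene and library with no unit named; the values were taken to be FPKM, scaled by the authors for length and library size, from their sums of 890182 to 926808 per library. Depth is not given in the files used here. HISAT2 2.1.0, RSEM 1.3.1, DESeq2 1.24.0 and GRCm38.p6 are named, with no role, per the submitters' processing notes. Of 55487 identifiers, 55227 matched GENCODE M21 and 260 did not.

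The 13032 genes at 1 FPKM or above in 4 libraries or more were compared on log2(FPKM + 1) with limma 3.58.1 in R 4.3.3 (eBayes with trend, treatment as the only term), with Benjamini-Hochberg adjustment over all of them at 0.05. Fold differences on this scale understate the change of low genes. The step was tested on simulated data. Nothing in the labels says more than 1 mouse per library, and p values measure the spread between these mice. No pair of libraries shared more than 0.261% of values.

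Matches were found with BLASTN of BLAST+ 2.17.0 (plus strand, word size 11, E value 1e-05, best bit score) of pseudogene transcripts against protein-coding transcripts, Python 3.11.15 and matplotlib 3.10.9 being used for tables and plots. No genome sequence was used here, and some of the genes that the naming rule took are not reported here. The genes, the lists of markers, functions and retrotransposition genes, and the rule for naming genes were chosen with earlier results of these data known. That rule took the 10 highest genes, the 5 with the smallest p in each direction where fewer than 5 passed adjustment, those at the threshold, and those with extreme ratios to a named parent or extreme SDs; further genes were named after their values were seen, among them members of the sequence family, identical pairs, copies under 90% identity and leading genes of groups.

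Replicate numbers were taken from the titles. The correlations of deviations from the group means of same-numbered libraries were 0.215, 0.277, -0.0197 and -0.0217. Those of differently numbered libraries lay between -0.324 and 0.155, so 0.215 and 0.277 were the highest of all. These values do not decide whether the numbers pair the mice. The labels name no pairing, and the main fit took none. Alternatives were other pseudocounts, filters, scalings, robust variances, the number as a block, other thresholds and each library left out.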

Additional observations from a re-analysis of the deposited data

Results flagged for a closer look

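Rps16-ps2 was at 338.5 FPKM in vehicle replicate 4, far below the other 3 vehicle libraries at 484 to 490.0, judged on the log2 scale by Dixon's criterion. Gm43493 was at 3.82 FPKM in tacrolimus replicate 1, below the other 3 tacrolimus libraries at 7.84 to 8.95. This criterion marks about 1 in 20 groups by chance.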

How the results depend on the processing

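The files hold no fragment counts, so the depth behind each level is unknown, and how reads were divided between identical sequences is not given in the sources used here. The replicate number as a block gave 121 adjusted calls over all genes, among them Gm42857 (1.66, adjusted p = 0.0344 in limma) and Gm19097 (-1.24, adjusted p = 0.0388). By unadjusted p, 16 expressed pseudogenes were higher and 11 lower in that fit. The shares of all genes by unadjusted p in that fit are not given here, so these counts cannot be set against them. In the labels the samples share only a number, and without the block there were 0 calls. Leaving out 1 library gave 0 to 1 adjusted calls over all genes (the 1 without vehicle replicate 1 was Gm37167, no processed pseudogene), 134 to 285 higher and 1308 to 2465 lower at an unadjusted p, and among the pseudogenes 6 (without tacrolimus replicate 4) to 17 (without vehicle replicate 1) higher and 7 to 12 (without vehicle replicate 2) lower. With no filter 426 genes were higher. Median-of-ratios and upper-quartile scaling gave 741 and 723 genes higher and 735 and 778 lower, 23 and 24 pseudogenes higher, and pseudogene medians of 0.24 and 0.24. A threshold of 1 FPKM gave 310 pseudogenes (18 higher), 5 FPKM gave 120, and 2 FPKM in all 8 libraries 112 (6 higher, 4 lower). At 500 bases or more there were 95, holding 0.591% of the summed FPKM, with 4 lower.

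The following differences, none past the adjusted threshold, changed sign. With median-of-ratios and upper-quartile scaling the values were 0.0131 and 0.0117 for Atp6v0c-ps2, 0.188 and 0.187 for Rps23-ps1, 0.0251 and 0.0300 for Rps12-ps9, 0.0709 and 0.0695 for Oaz1-ps, 0.143 and 0.142 for Tpt1-ps3, and 0.0847 and 0.0654 for Gm6565. With a pseudocount of 0.1 they were 0.392 for Rps12-ps9 and -0.654 for Gm48494, and with 0.5 -0.130 for Gm48494. Leaving out 1 library gave ranges of -0.0668 to 0.215 for Gm10123, -0.0172 to 0.249 for Gm10359, -0.222 to 0.0408 for Rps23-ps1, -0.127 to 0.0682 for Rps16-ps2, -0.0645 to 0.0724 for Rps13-ps2, -0.0945 to 0.269 for AC169506.3, -0.655 to 0.211 for Rps12-ps9, -0.0295 to 0.204 for Mrpl23-ps1, -0.887 to 0.782 for Gm48494 and -0.802 to 0.679 for Gm6565. The cause of these changes was not tested. The sequence family was added after seeing the data, and its median lay between 0.48 and 0.86 under its 17 alternatives.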
